A study of Mus musculus with 21 samples.

Results

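The T-box transcription factors described here are 8 mouse genes, Tbx1, Tbx2, Tbx3, Tbx4, Tbx5, Tbx15, Tbx18 and Tbx20. They were chosen by symbol, and all 8 were found among the 24091 genes of the table. RNA was sequenced from C3H/10T1/2 cells, an established mouse line of embryonic mesenchymal progenitor cells that can turn into fat, cartilage, bone or muscle-like cells, grown in DMEM with 10% fetal bovine serum. The cells carried wild-type histone H2B (WT) or H2B with 1 glutamate replaced: E71K, E76K and E113K carry lysine, which reverses the charge, and E71Q, E76Q and E113Q carry glutamine, which removes it. Each of the 7 groups had 3 libraries, 21 in all, and values are TPM, a transcript abundance that is corrected for length and scaled so that every library has the same total. All groups share the cell line and the medium, and an introduced H2B cannot be told from the cells' own H2B genes in these values. The series' text calls the libraries independent biological replicates, but nothing says that they came from separate cultures or separately made lines. The p-values therefore reflect only how far libraries of the same group differ, possibly for technical reasons. That spread is estimated for each gene over all 7 groups together, not for the compared groups alone. Effects of the substitution and of the line that carries it cannot be told apart.

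T-box factors bind DNA through the T-box domain, which recognizes a short sequence called the T-half site, and they act as activators or repressors whose dose matters in the embryo. Tbx1 patterns the pharyngeal arches and the outflow tract of the heart. Tbx15 and Tbx18 are closely related factors of limb, trunk and epicardial mesenchyme. Tbx2 and Tbx3 are repressors that oppose differentiation and senescence, Tbx4 and Tbx5 start the outgrowth of the hindlimb and the forelimb, and Tbx20 acts in the heart.

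Tbx1, Tbx15, Tbx18 and Tbx3 were expressed, and Tbx2, Tbx4, Tbx5 and Tbx20 were near 0. Mean TPM over the 21 libraries was 16.3 for Tbx1, 16.1 for Tbx15, 9.95 for Tbx18 and 2.7 for Tbx3, which ranked above 72.4%, 72.2%, 65.6% and 54.5% of all genes in the table. A gene was tested where it averaged at least 1 TPM, which left 12192 genes and 4 of the 8 T-box genes. Tests used limma on log2(TPM + 1) over all 21 libraries, and a gene is called where its Benjamini-Hochberg adjusted p is below 0.05. Each of the 4 tested T-box genes differed somewhere among the 7 groups, where 77.1% of tested genes did. The adjusted p of the F test was 1.67e-14 for Tbx1, 0.00201 for Tbx18, 0.00528 for Tbx3 and 0.00861 for Tbx15.

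Some libraries stood apart, which bears on the values below. One locus annotated as a microRNA, Mir6236, took 2.19% to 30.6% of a library's TPM, most in E71K replicate 2 (30.6%) and E71Q replicate 1 (21.2%), and this lowers every other gene of that library. E71K replicate 3, E71Q replicate 1, E76K replicate 3 and E113Q replicate 3 lay apart from their mates along the main axis of differences within groups, and E71K replicate 3 resembled an E71Q library most. Of 11 mesenchymal markers 10 averaged at least 1 TPM, with Vim and Ly6a highest, whereas Nt5e was near 0 in every library. Against WT, 0 of these 10 rose and 3 fell in E71K, 0 and 6 in E71Q, and 2 and 3 in E76K. The counts were 0 and 4 in E76Q, 4 and 1 in E113K, and 2 and 2 in E113Q. Among all tested genes 26.7%, 44.2%, 33.2%, 44.3%, 51% and 30.6% were called in these comparisons. Summed epithelial markers were 11.5 to 14.4 TPM in WT, 81.2 to 488 in E71K, 41.5 to 365 in E71Q and at most 9.79 elsewhere. Krt14 among them reached 483 TPM, and Epcam was at 0 in 20 of 21 libraries. Only 3 of the 6 epithelial genes were tested. In both E71K and E71Q 1 of these was higher and 2, Cdh1 among them, were lower. Summed cardiac muscle markers were 17.7 to 22.8 TPM in WT, 28.3 to 169 in E71K, 18.2 to 66 in E71Q and at most 18.5 elsewhere. Among them Tnnt2 reached 168 TPM and Myh6 16, while Myh7, Actn2 and Ryr2 were at most 0.581. Of these 5 genes 2 were tested, and 0 were called in E71K or E71Q. Summed neural crest markers were 1.04 to 1.56 TPM in WT, 12.8 to 30.4 in E71K, 10.1 to 15 in E71Q and at most 12.3 elsewhere, with Sox10 at 0 in 19 of 21 libraries. Summed epicardial and mesothelial markers, of which 1 of 5 was tested (Msln), were 100 to 110 TPM in WT and at most 29 in every mutant library, and Msln fell in all 6 mutants. The part of these markers in the T-box differences was not tested. In bulk RNA, fewer cells that express a gene and less RNA in each cell cannot be told apart.

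Tbx1 changed most. In WT its level was 23.1, 24.0 and 23.1 TPM in replicates 1, 2 and 3. In E71K it was 2.36, 2.19 and 3.96 TPM, and in E71Q it was listed at 0 in replicates 1 and 2 and at 0.08 in replicate 3. Every E71 mutant library thus lay far under every WT library, and the E71K and E71Q libraries did not overlap either. On the log2(TPM + 1) scale Tbx1 fell by 2.70 in E71K (SE 0.13, adjusted p = 4.48e-11), a larger change than that of 98.1% of tested genes. It fell by 4.57 in E71Q (SE 0.13, adjusted p = 3.16e-14), larger than that of 99.5% of tested genes. The WT mean on this scale was 4.61, so the change in E71Q is about the largest that this scale allows, and its size depends on the pseudocount: -7.59 with 0.1 and -2.50 with 5. With the libraries that lay apart left out, the values were -2.90 and -4.55.

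At the other residues the changes of Tbx1 were smaller. It measured 34.0, 37.0 and 32.5 TPM in E113K, above all WT libraries, a rise of 0.54 on the log2(TPM + 1) scale (SE 0.13, adjusted p = 0.00297). It measured 15.9, 15.7 and 13.6 TPM in E113Q, under all WT libraries (-0.60, adjusted p = 0.00249), and 16.1, 17.7 and 17.1 TPM in E76Q, also under them (-0.44, adjusted p = 0.0128). The call in E76Q was lost with a pseudocount of 0.1 (adjusted p = 0.0842). In E76K it measured 18.8, 21.1 and 23.2 TPM, which overlaps WT (-0.15, 95% interval -0.43 to 0.13, adjusted p = 0.41). With a median-ratio rescaling of the libraries Tbx1 was called lower in E76K as well (-0.31, adjusted p = 0.0149), and also without the libraries that lay apart (-0.22, adjusted p = 0.0327). From highest to lowest, the order of mean log2 levels was E113K, WT, E76K, E76Q, E113Q, E71K and E71Q. WT and E76K, E76K and E76Q (adjusted p = 0.105), and E76Q and E113Q (adjusted p = 0.453) are neighbours in this order whose difference did not pass the test.

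Tbx1 lies on the minus strand of chromosome 16 (GRCm38.p6, chr16:18580979-18590671). The nearest protein-coding gene toward lower coordinates is Gnb1l, 14298 bases away, and toward higher coordinates Gp1bb, 29647 bases away. Gnb1l measured 8.83 TPM in WT, 6.32 in E71K (-0.43 on the log2 scale, adjusted p = 0.0523) and 4.91 in E71Q (-0.74, adjusted p = 0.00101), but it was also lower in E113K, where Tbx1 rose (5.12 TPM, -0.68, adjusted p = 0.00161). Gp1bb, which encodes a platelet glycoprotein, was 1.31 TPM in WT and higher in E71Q (0.89 on the log2 scale, adjusted p = 0.00148), and also in E76K (1.21), E76Q (1.06) and E113K (1.43). Over the 5 protein-coding genes on each side, a window chosen after values were seen, 9 of 10 were tested. Against WT, 0 were higher and 2 lower in E71K, where 26.7% of all tested genes were called, and 2 were higher and 4 lower in E71Q, where 44.2% were. The counts were 3 and 0 in E76K (33.2%), 3 and 4 in E76Q (44.3%), 3 and 2 in E113K (51%), and 1 and 1 in E113Q (30.6%).

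RefSeq start sites gave the 250 bases before the start for 4 of the 8 genes (build GRCm38.p6). The windows of Tbx1, whose level fell to near 0 in E71Q, are shown beside those of Tbx18, expressed in every library, and Tbx20, near 0 in every library, to compare the sequence in front of genes at different levels. All run 5′ to 3′ on the gene's minus strand, and capitals mark CpG pairs, the bases that can carry DNA methylation.
Tbx1, first start, chr16:18590672-18590921: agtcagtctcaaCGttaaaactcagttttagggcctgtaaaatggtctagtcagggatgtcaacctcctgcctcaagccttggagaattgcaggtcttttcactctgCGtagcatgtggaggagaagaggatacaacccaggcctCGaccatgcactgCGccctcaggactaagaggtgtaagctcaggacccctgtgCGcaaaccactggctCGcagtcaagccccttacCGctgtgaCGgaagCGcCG
Tbx1, second start, chr16:18588900-18589149: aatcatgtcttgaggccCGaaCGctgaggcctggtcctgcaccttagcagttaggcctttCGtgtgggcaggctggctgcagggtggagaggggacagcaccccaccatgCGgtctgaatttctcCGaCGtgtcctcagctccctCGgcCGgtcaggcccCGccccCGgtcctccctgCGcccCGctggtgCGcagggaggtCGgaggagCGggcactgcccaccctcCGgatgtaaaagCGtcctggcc
Tbx18, chr9:87731261-87731510: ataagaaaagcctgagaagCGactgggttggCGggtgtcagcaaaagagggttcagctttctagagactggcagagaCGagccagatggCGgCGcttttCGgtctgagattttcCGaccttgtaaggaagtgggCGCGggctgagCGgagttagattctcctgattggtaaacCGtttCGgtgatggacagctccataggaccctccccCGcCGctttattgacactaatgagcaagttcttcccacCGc
Tbx20, chr9:24774304-24774553: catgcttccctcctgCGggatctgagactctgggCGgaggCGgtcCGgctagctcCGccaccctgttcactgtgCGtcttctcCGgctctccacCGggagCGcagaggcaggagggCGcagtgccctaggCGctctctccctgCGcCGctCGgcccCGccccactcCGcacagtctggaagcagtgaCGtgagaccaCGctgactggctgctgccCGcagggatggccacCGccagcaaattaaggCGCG

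The Tbx1 windows hold 10 and 17 CpG pairs, with a ratio of observed to expected CpG of 0.541 and 0.603, above 62.2% and 66.3% of the 32817 RefSeq windows of this length. The Tbx18 window holds 15 (ratio 0.836, above 83.7% of windows) and the Tbx20 window 22 (0.749, above 77%). The Tbx4 window, not printed, holds 6 (0.285, above 41.1%). The windows of Tbx20 and Tbx4, both genes near 0, thus hold the most and the fewest CpG pairs of the 5, and the ratio is highest for Tbx18. The T-half site, searched as GGTGTGA on both strands, is in 0 of the 5 windows of these genes, the Tbx4 window included, and in 3.33% of all windows. The longer form AGGTGTGA is also in 0 of 5, and in 1.12% of all.

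**Figure D1:**
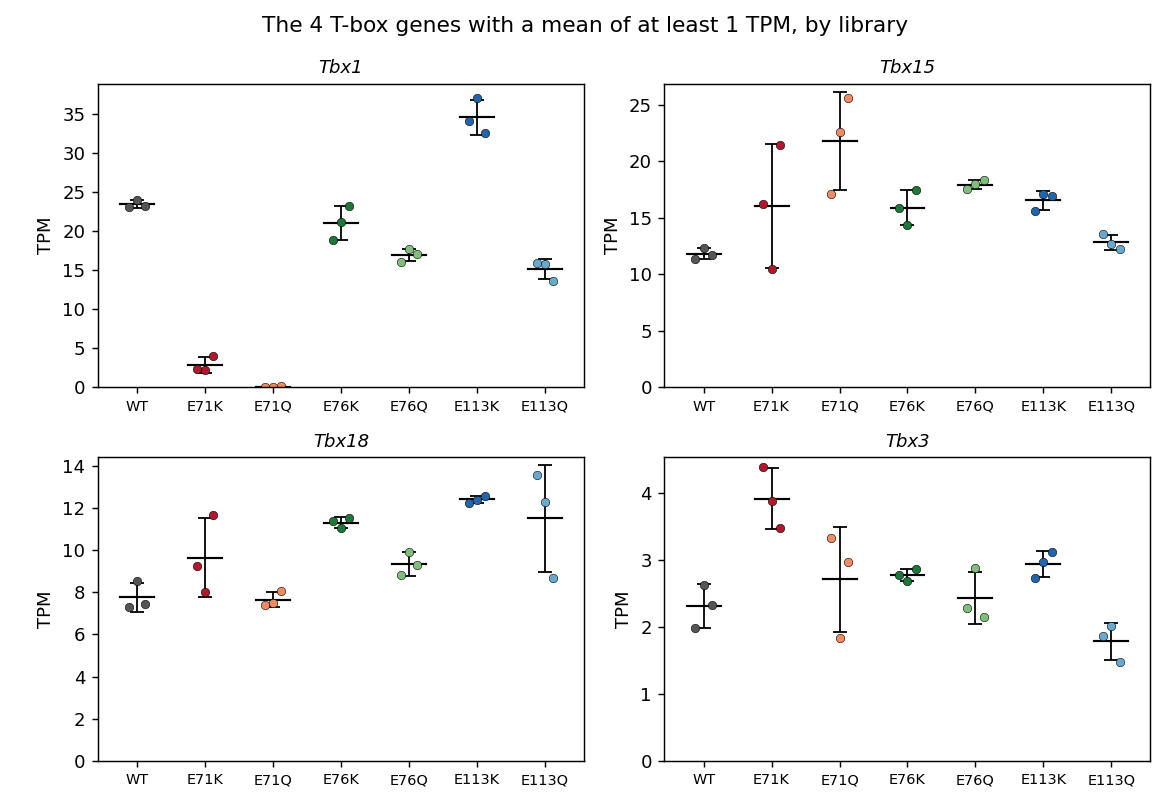
TPM (y axis, from 0) of Tbx1, Tbx15, Tbx18 and Tbx3 in each library (points) of the 7 groups (x axis), with the mean (line) and SD (bars). Tbx1 is at 0 or 0.08 TPM in the E71Q libraries and at most 3.96 TPM in E71K, while the other panels hold no group near 0.

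Tbx15, a factor of limb and shoulder mesenchyme, had its lowest mean in WT, at 11.4, 12.3 and 11.7 TPM. It reached 17.1, 22.6 and 25.6 TPM in E71Q, above all WT libraries, a rise of 0.81 on the log2(TPM + 1) scale (SE 0.18, adjusted p = 0.00135). It rose in E76Q too (17.5, 17.9 and 18.3 TPM, 0.56, adjusted p = 0.0158). In E113K it measured 15.6, 17.1 and 16.9 TPM, and its rise (0.45, adjusted p = 0.0406) did not pass when any 1 of the 6 libraries compared was left out (adjusted p from 0.0588 to 0.101). With no filter on low values it did not pass either (adjusted p = 0.059).

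In E76K Tbx15 lay above WT in every library (15.9, 14.3 and 17.4 TPM) without passing the test (0.40, 95% interval 0.02 to 0.77, adjusted p = 0.0951), and it passed with a median-ratio rescaling (0.24, adjusted p = 0.0318). In E71K it measured 16.2, 10.5 and 21.4 TPM, on both sides of WT. Its lowest value there was in the library with the highest Mir6236 share, and without Mir6236 the E71K values were 16.9, 15.1 and 22 TPM, all above WT values treated alike (11.9, 13.3 and 12.2), and the difference was called (0.48, adjusted p = 0.00201). Without E71K replicate 2 it was also called (0.62, adjusted p = 0.00254). In E113Q it measured 13.6, 12.7 and 12.2 TPM, overlapping WT (0.11, adjusted p = 0.68). The order of mean log2 levels was E71Q, E76Q, E113K, E76K, E71K, E113Q and WT (in mean TPM E71K, at 16, lay just above E76K, at 15.9), and no pair of neighbours in it passed the test (adjusted p from 0.357 to 0.916).

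Tbx18, expressed in epicardium, limb and ureter mesenchyme, was 7.30, 8.53 and 7.45 TPM in WT. It was higher in E113K (12.2, 12.4 and 12.6 TPM, a log2 difference of 0.62, SE 0.14, adjusted p = 0.00125) and in E76K (11.4, 11.0 and 11.5 TPM, 0.49, adjusted p = 0.0103), in each case with no overlap with WT. In E113Q it measured 13.6, 12.3 and 8.66 TPM (0.50, adjusted p = 0.0104). The lowest of these was in the library that lay apart, and leaving out the libraries set apart above gave 0.67 (adjusted p = 3.01e-05). Without E113Q replicate 1 it was 0.37 (adjusted p = 0.0621), and in a fit of the 6 libraries alone the adjusted p was 0.0759. In E76Q it measured 8.81, 9.93 and 9.28 TPM, above WT in every library, without passing the test (0.24, adjusted p = 0.161). It passed without Mir6236 (0.33, adjusted p = 0.0182), without the libraries that lay apart (adjusted p = 0.0145) and in a fit of the 6 libraries alone (adjusted p = 0.0377). It did not pass with median-ratio rescaling (0.24, adjusted p = 0.0558) or quantile normalization (0.17, adjusted p = 0.109).

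In E71K Tbx18 measured 9.26, 8.02 and 11.7 TPM (0.27, adjusted p = 0.161), and it was called without Mir6236 (0.39, adjusted p = 0.00988). In E71Q, where Tbx15 was highest, it measured 7.42, 7.49 and 8.06 TPM, within the WT range (-0.01, 95% interval -0.30 to 0.27, adjusted p = 0.952). The Tbx15 level divided by the Tbx18 level does not depend on the scaling of a library. It was 1.45 to 1.57 in WT, 2.3 to 3.17 in E71Q, 1.81 to 1.99 in E76Q, 1.31 to 1.84 in E71K, 1.3 to 1.51 in E76K, 1.28 to 1.38 in E113K and 0.999 to 1.41 in E113Q. These ranges put E71Q above every other group, and E113K and E113Q under WT. The order of mean Tbx18 levels was E113K, E113Q, E76K, E71K, E76Q, WT and E71Q, and no pair of neighbours passed the test.

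Tbx3, a repressor of cell-cycle inhibitors and of Cdh1, was the least of the expressed genes. It measured 1.98, 2.63 and 2.34 TPM in WT and 4.39, 3.89 and 3.48 in E71K, all above WT (0.57 on the log2 scale, SE 0.15, adjusted p = 0.0102). This was its one call against WT with all 21 libraries fitted, and without WT replicate 1 it was 0.49 (adjusted p = 0.0528). It measured 3.33, 1.83 and 2.97 TPM in E71Q, 2.77, 2.68 and 2.86 in E76K, and 2.28, 2.88 and 2.14 in E76Q. It measured 2.73, 2.98 and 3.13 TPM in E113K and 1.86, 2.02 and 1.48 in E113Q. The 5 log2 differences lay between -0.25 and 0.25, with adjusted p of 0.18 to 0.827, and E113Q, the lowest group, overlapped WT. In the order of means, E71K, E113K, E76K, E71Q, E76Q, WT and E113Q, no pair of neighbours passed the test. Tbx3os2, a noncoding RNA beside Tbx3, was at most 0.104 TPM.

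Genes on the opposite strand overlap 3 of these genes: Tbx3os1 overlaps 697 bases of Tbx3, Gm43120 6588 bases of Tbx15 and D030062O11Rik 1976 bases of Tbx18. None of the 3 is in the table, and whether counting used strand is not given in the sources used here, so their reads cannot be told apart from those of the T-box genes.

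Against WT, 1 tested T-box gene was higher and 1 lower in E71K, where 26.7% of tested genes were called, 12.5% higher and 14.2% lower. The counts were 1 and 1 in E71Q (44.2% called, 20.7% higher and 23.5% lower), 1 and 0 in E76K (33.2%, 23.5% and 9.67%), and 1 and 1 in E76Q (44.3%, 22% and 22.4%). They were 3 and 0 in E113K (51%, 30.3% and 20.7%), and 1 and 1 in E113Q (30.6%, 17.9% and 12.7%). Only 4 genes were tested, so these counts set the T-box genes apart from the background in no mutant. Their median log2 difference was 0.32 in E71K, 0.06 in E71Q, 0.29 in E76K, 0.14 in E76Q, 0.50 in E113K and -0.07 in E113Q. Over all tested genes the median was 0 in both E71 mutants, 0.16 in E76K, 0.02 in E76Q, 0.13 in E113K and 0.06 in E113Q. A median-ratio rescaling brought the median of all genes to 0.01 in E76K and E113K. There Tbx18 was still higher (0.35 in E76K, 0.49 in E113K), as was Tbx1 in E113K (0.41). Tbx15 was called higher in both (0.24 in E76K, 0.33 in E113K). The same rescaling took the share of calls that were higher from 70.8% to 53.1% in E76K. The 6 comparisons share the WT libraries.

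**Figure D2:**
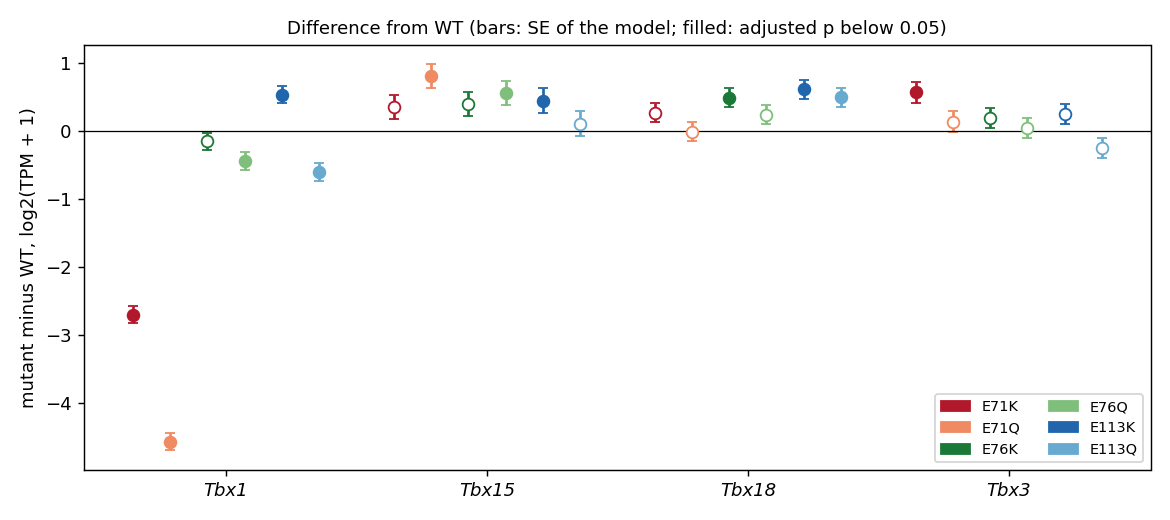
Mutant minus WT difference on the log2(TPM + 1) scale (y axis) for the 4 tested genes (x axis) in the 6 mutants (colours), with the SE of the model as bars and filled points where the adjusted p was below 0.05. Tbx1 stands at -2.70 and -4.57 in E71K and E71Q, and every other point lies between -0.60 and 0.81.

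The summed TPM of the 8 genes was 45.4 ± 1.94 (SD, n = 3) in WT. It was 32.6 ± 7.99 in E71K, 32.3 ± 4.47 in E71Q, 51.1 ± 3.49 in E76K, 46.7 ± 1.9 in E76Q, 66.5 ± 2.68 in E113K and 41.3 ± 4.66 in E113Q. Tbx1 gave 51.6% of the sum in WT and 51.9% in E113K, 41.1% in E76K, 36.3% in E76Q, 36.7% in E113Q and 8.63% in E71K. Tbx15 gave 26% in WT, 48.4% in E71K and 67.1% in E71Q. Tbx1 was the highest of the 8 genes in 12 libraries and Tbx15 in 9. These shares do not depend on the scaling of a library.

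**Figure D3:**
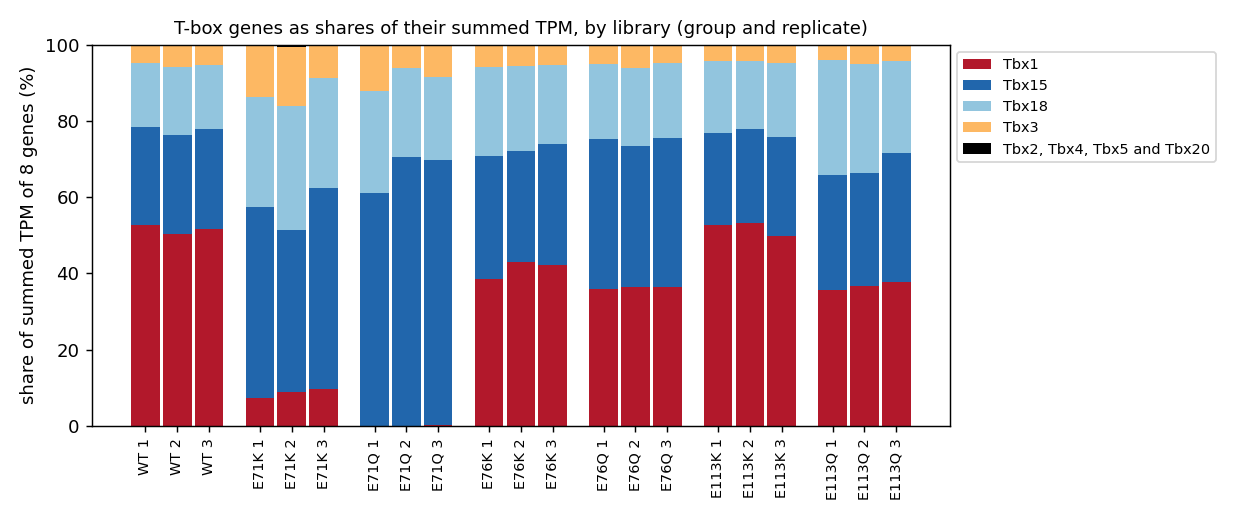
Share of the summed TPM of the 8 genes (y axis, percent) taken by each in the 21 libraries (x axis, group and replicate), with Tbx2, Tbx4, Tbx5 and Tbx20 summed. Tbx1 takes the largest share in WT and E113K and close to none in E71Q, where Tbx15 takes 67.1% on average.

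Lysine and glutamine at the same residue differed for Tbx1 at E71 and E113. Against E71Q, Tbx1 was higher in E71K by 1.87 on the log2 scale (SE 0.13, adjusted p = 2.39e-08), or 2.81 TPM between the means. Against E113Q it was higher in E113K by 1.14 (adjusted p = 9.68e-06), or 19.4 TPM, with no overlap. At E76 lysine was higher by 0.29 (95% interval 0.01 to 0.58, adjusted p = 0.105). At E71, 1 of 4 tested genes was called where 25.1% of all were, at E76 0 of 4 (31.9%; 1 of the 4 had an unadjusted p under 0.05 with limma), and at E113 2 of 4 (28%). The second call at E113 was Tbx3, higher with lysine by 0.50 (adjusted p = 0.0213). Without E113K replicate 2, E113K replicate 3 or E113Q replicate 3 its adjusted p was 0.0567, 0.0672 or 0.0689. At E71 Tbx3 was also higher with lysine, with no overlap, but did not pass (0.42, adjusted p = 0.0523). It passed there in 4 of 10 alternatives other than leaving out 1 library (values from 0.21 to 0.61). It also passed in 2 of 6 fits with 1 library left out. At E76 it did not pass (0.14, adjusted p = 0.52). Its E71 value minus its E113 value was -0.08 (adjusted p = 0.811), so these residues were not shown to differ. Tbx15 did not pass at any residue (-0.45 at E71, -0.17 at E76 and 0.35 at E113), and neither did Tbx18 (0.29, 0.25 and 0.12). With median-ratio rescaling Tbx15 was called at E71 (-0.44, adjusted p = 0.000808), E76 (-0.32, adjusted p = 0.00736) and E113 (0.28, adjusted p = 0.0162), and Tbx18 at E71 (0.30, adjusted p = 0.0292). Without the libraries that lay apart Tbx15 was called at E71 (-0.83, adjusted p = 0.000264).

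The difference between residues was tested as an interaction. For Tbx1, lysine minus glutamine was larger at E71 than at E76 by 1.58 (SE 0.19, adjusted p = 7.6e-06; 21.7% of tested genes called) and smaller at E76 than at E113 by 0.85 (adjusted p = 0.00279; 29.5% called). It was larger at E71 than at E113 by 0.73 (adjusted p = 0.007; 32.7% called), but this last value turned to -0.34 (adjusted p = 0.0407) with a pseudocount of 5. In TPM, lysine minus glutamine was 2.81 at E71, 4.1 at E76 and 19.4 at E113, so on that scale it was smallest at E71. For Tbx15, lysine minus glutamine was lower at E71 than at E113 by 0.80 (adjusted p = 0.0214). That call was lost without E71Q replicate 3 (adjusted p = 0.0609).

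**Figure D4:**
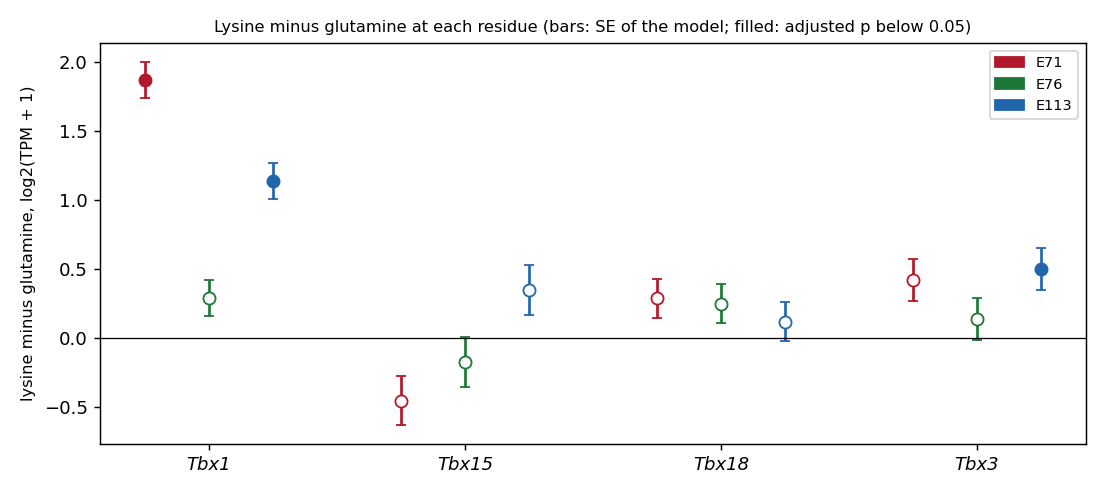
Lysine minus glutamine difference on the log2(TPM + 1) scale (y axis) for the 4 tested genes (x axis) at E71, E76 and E113 (colours), with the SE of the model as bars and filled points where the adjusted p was below 0.05. Tbx1 is at 1.87 at E71 and 1.14 at E113, and the Tbx15 points run from -0.45 at E71 to 0.35 at E113.

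The other 4 genes were under 1 TPM in 21 of 21 libraries and were not tested. Tbx2 was at most 0.0837 TPM and at 0 in 6 libraries, and Tbx20 was at most 0.0578 TPM and at 0 in 5. Tbx5 was at most 0.0736 TPM and at 0 in 10 libraries, all 3 of E113Q among them. Tbx4 was at 0 in 18 libraries and reached 0.037 TPM, with a value above 0 in E71K replicate 2, E71Q replicate 1 and E76K replicate 2. Tbx2 and Tbx4 lie 44418 bases apart on chromosome 11, and Tbx3 and Tbx5 lie 111789 bases apart on chromosome 5, both pairs on the plus strand. Tbx3 was thus expressed beside a neighbour near 0, while Tbx2 and Tbx4 were both near 0. TPM keeps no read total, so the limit that such low values allow cannot be given.

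**Figure D5:**
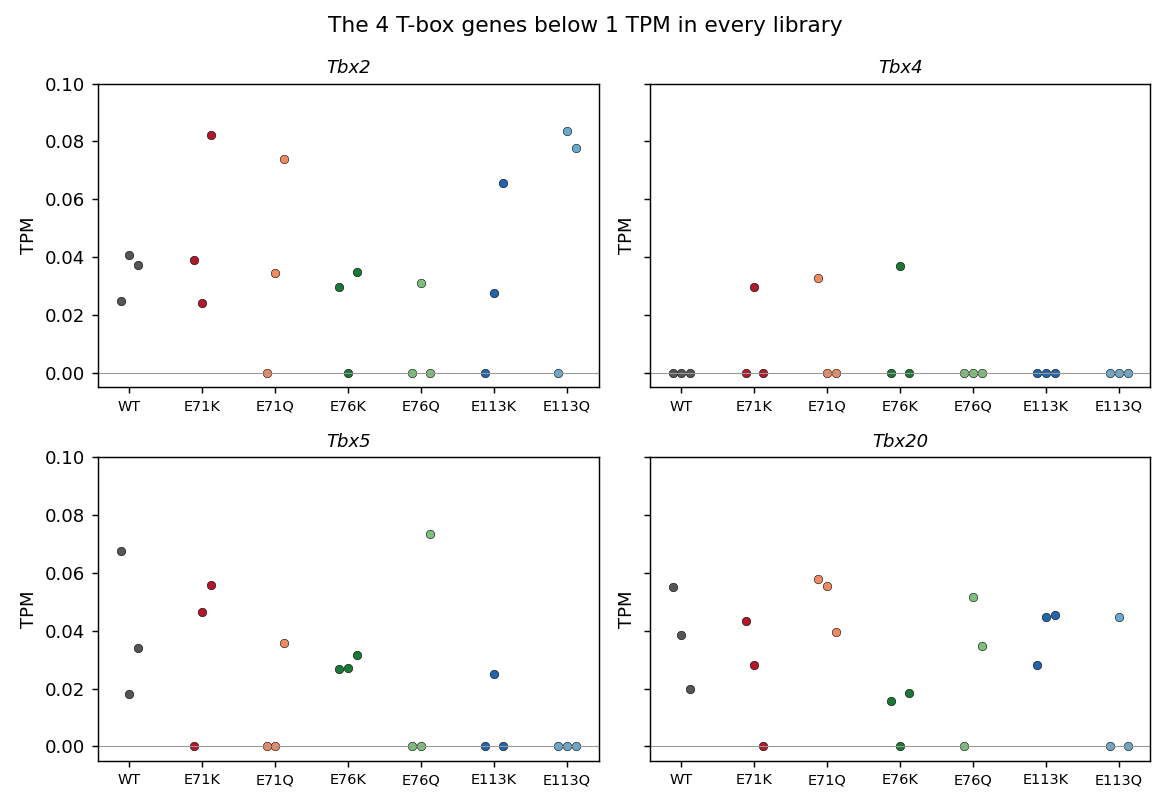
TPM (y axis) of Tbx2, Tbx4, Tbx5 and Tbx20 in each library (points) of the 7 groups (x axis). No value is above 0.0837 TPM, and Tbx4 is at 0 in 18 of 21 libraries.

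Of the 9 other T-box family genes, 1 was tested: Mga, a large factor with a T-box that also pairs with Max. It measured 10.4 ± 2.91 TPM (SD, n = 3) in WT and fell in E76K to 3.62 ± 0.445 (-1.28, adjusted p = 9.82e-06) and in E113Q to 5.72 ± 0.826 (-0.75, adjusted p = 0.00217). T, the founding member of the family, was at most 0.764 TPM, Tbx6 at most 0.473, Eomes at most 0.198 and Tbr1 at most 0.144. Tbx10 was at 0 in every library, and Tbx19, Tbx21 and Tbx22 were at most 0.0581 TPM.

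Of 24 transcription factors and cofactors known to work with T-box factors in limb, shoulder girdle, heart and epicardium, 10 were tested. Against WT, 3 rose and 2 fell in E71K, 3 and 3 in E71Q, 1 and 1 in E76K, 3 and 2 in E76Q, 5 and 0 in E113K, and 4 and 0 in E113Q. Among all tested genes 26.7%, 44.2%, 33.2%, 44.3%, 51% and 30.6% were called. Only 10 genes were tested, from a list chosen with earlier results known, so these counts cannot place the list against the background. Mef2c, a factor of muscle and heart, rose in all 6, from 1.43 ± 0.159 TPM in WT to between 4.13 ± 0.161 in E113K and 18.3 ± 1.26 in E76Q. Sall1, a zinc-finger factor of limb and kidney, rose in E71K (0.269 to 7.96 TPM, 2.77 on the log2 scale, adjusted p = 4.47e-09), E71Q, E76Q and E113Q. Emx2, which acts with Tbx15 in shoulder blade formation, fell in both E71 and both E76 mutants, most in E76K (2.14 to 0.115 TPM, -1.49, adjusted p = 8.04e-07), and rose in E113K (4.22 TPM, 0.73) and E113Q (3.48 TPM, 0.49). Gata4, a heart factor, fell in E71K from 7.52 to 3.19 TPM (-1.03, adjusted p = 2.02e-06), and also in E71Q (-0.62) and E76Q (-0.57). Nkx2-5, Hand1, Hand2, Pitx1 and Wt1 were near or at 0.

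Of 22 known targets of T-box factors, 10 were tested, and between 3 and 5 of them moved in each direction in every mutant: 3 rose and 3 fell in E71K, 4 and 3 in E71Q, 4 and 4 in E76K, 4 and 5 in E76Q, 4 and 4 in E113K, and 3 and 3 in E113Q. These 6 to 9 of 10 stand beside the 26.7% to 51% of all tested genes called in these comparisons. The list was chosen with earlier results of these data known, so no enrichment of targets can be read from these counts. Bmp4, a growth factor of limb and heart, rose in all 6 mutants, from 14.4 ± 0.242 TPM in WT, by 0.71 in E113Q (adjusted p = 0.0278) up to 2.51 in E76K (adjusted p = 1.85e-07). Fgf10, a limb and pharyngeal growth factor linked to Tbx1 and Tbx5, was 4.04 ± 0.244 TPM in WT and rose in E113K (37.6 ± 4.02, a log2 difference of 2.93), E113Q (28.5 ± 4.65, 2.54), E76K (24.8 ± 7.27, 2.32), E71Q (16.9 ± 7.43, 1.73) and E76Q (10.6 ± 0.795, 1.2). In E71K Fgf10 was not called (8.96 ± 7.1 TPM, 0.76, adjusted p = 0.141). Its relation to the level of Tbx1 was not tested. Sema3c, a guidance factor of the outflow tract, rose in E71Q (3.53 to 69.2 TPM, 3.94, adjusted p = 1.05e-09) and E71K (44.2 TPM, 3.23), in E76Q (22.8 TPM, 2.40) and E113Q (18.9 TPM, 2.08), and fell in E76K to 0.133 TPM (adjusted p = 8.02e-06). Foxc2, a mesenchymal forkhead factor, fell in E71Q from 22.3 to 5.32 TPM (-1.88, adjusted p = 2.37e-09), and also in E76Q (-1.30), E76K (-0.68) and E71K (-0.67). Cdh1, an epithelial marker that Tbx2 and Tbx3 are known to repress, fell in every mutant, by 0.86 in E71K (adjusted p = 0.00937) up to 2.27 in E76K (adjusted p = 5.96e-07). Nppb, a natriuretic peptide gene, measured 4.84 TPM in WT and was listed at 0 in all E113K and E113Q libraries.

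Across the 21 libraries, which share 7 groups, Tbx1 and Tbx18 had a Pearson correlation of 0.53 on the log2(TPM + 1) scale, Tbx1 and Tbx15 of -0.44 and Tbx1 and Tbx3 of -0.27. The other 3 pairs lay between 0.07 and 0.2, so the 4 genes did not share 1 pattern. The 3 genes most like each member were taken from 9919 genes that averaged at least 5 TPM. For Tbx1 they were Net1 (0.944), Tshz3 (0.937) and Plxnd1 (0.934), and none of them reached 0 in the way Tbx1 did: Net1 was 28.2 TPM in WT, 14.3 in E71K, 4.84 in E71Q and 65.9 in E113K. For Tbx15 they were Stk25 (0.946), Gnaq (0.933) and Nbeal1 (0.926), and for Tbx18 Tnks (0.918), Uprt (0.916) and Cpt1c (0.914). For Tbx3 the closest were less alike, Arhgap29 (0.73), Mapkapk2 (0.728) and Pfn2 (0.723). These likenesses are descriptions over libraries that share groups and scaling.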

How the data were processed

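The authors deposited TPM for 24091 genes in 21 libraries, and their table of group means was not used. Per the submitters' processing notes, Salmon, featureCounts 1.4.4 and DESeq were used with build mm10; which of them made the TPM values is not given in the sources used here. Per the labels' protocols, RNA came from an RNeasy kit and libraries from NEBNext Ultra II. TPM keeps no read total, so depth is unknown and no counting interval can be given.

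Values were used as log2(TPM + 1). limma 3.58.1 in R 4.3.3 fitted the 7 groups to the 12192 genes that averaged at least 1 TPM (moderated variances with a trend), with Benjamini-Hochberg adjustment over all tested genes within each comparison. The procedure was tested on simulated data. Alternatives were pseudocounts of 0.1 and 5, no filter, a mean of at least 5 TPM, median-ratio rescaling on 8056 genes, quantile normalization, no trend, a replicate block, fits of only the groups compared, and each library left out. Leaving out Mir6236, or the libraries that lay apart, was added after the data were seen.

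The genes and lists were chosen with earlier results of these data known. Named are all 8 T-box genes, up to 4 called genes of a list in a comparison by the size of the change, the 3 genes most like each tested member, and the nearest protein-coding gene on either side of a member. Low-level family members, untested list members and genes followed across other mutants were named after their values were seen. One gene that this rule would name is not reported here. Genes were matched by Entrez identifier to RefSeq and GENCODE positions on GRCm38.p6, the assembly behind mm10. Promoter sequences came from RefSeq through Python 3.11.15 and pandas 2.3.3, and plots from matplotlib 3.10.9.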

Additional observations from a re-analysis of the deposited data

Results flagged for a closer look

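Lysine minus glutamine differed between residues in 4 interactions on the log2(TPM + 1) scale. For Tbx1 it was larger at E71 than at E76 by 1.58 (SE 0.19, adjusted p = 7.6e-06) and larger at E71 than at E113 by 0.73 (SE 0.19, adjusted p = 0.007). For Tbx1 the value at E76 minus that at E113 was -0.85 (SE 0.19, adjusted p = 0.00279). For Tbx15 the value at E71 minus that at E113 was -0.80 (SE 0.25, adjusted p = 0.0214). Of 12 interactions computed for the 4 tested genes, these passed limma's test with adjustment over all tested genes. Tbx1 in E71Q is at or near 0, so its differences at E71 depend on the pseudocount: with 5, E71 minus E113 was -0.34. In TPM, lysine minus glutamine was 2.81 at E71, 4.1 at E76 and 19.4 at E113, smallest at E71.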

How the results depend on the processing

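Same-numbered libraries showed no clear pairing: their deviations from the group means correlated between -0.17 and 0.42 (63 pairs, mean 0.03). Different-numbered libraries gave -0.40 to 0.29 (126 pairs, mean -0.01). A correlation over 0.1 was seen in 13 of the 63 pairs and 15 of the 126, and 7 of 21 libraries were closest to their own number. With replicate number as a block, the counts of T-box genes called against WT were 2 in E71K, 2 in E71Q, 1 in E76K, 2 in E76Q, 3 in E113K and 2 in E113Q, as without it, and no call of a T-box gene changed. Under the block 3395 genes were called in E71K against WT and 5545 in E71Q, where 3250 and 5388 were called without it.

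Tbx1 kept its fall in E71K and E71Q and its difference between these under every alternative run. Depth is unknown, so the precision of values near 0 cannot be estimated. The cause of the changes below was not tested. Not every shift of a count is listed. In E113K against WT 6215 genes and 3 T-box genes were called in the main fit. Over the alternatives other than leaving out 1 library, these counts ran from 5150 to 8849 and from 2 to 4. In E76Q the T-box count ran from 1 to 3.

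With a pseudocount of 0.1, 1 T-box gene was called in E76Q. With 5, 2 were called between E71K and E71Q and 1 between E76K and E76Q, and the Tbx1 interaction of E71 with E113 turned to -0.34. With a mean of at least 5 TPM, which leaves fewer genes tested, 1 was called in E71K and 1 between E113K and E113Q. Without the trend, 2 were called between E71K and E71Q.

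With median-ratio rescaling, 4 T-box genes and 5135 genes were called in E71K against WT, 3 T-box genes in E76K, 3 and 5263 between E71K and E71Q, 1 T-box gene between E76K and E76Q, and 5302 genes between E113K and E113Q. The interactions called 4341 genes (E71 with E76), and 5403 genes and 2 T-box genes (E76 with E113). With quantile normalization these values were 4 and 5109, 3, 3 and 5147, 1, 5294, 4364, and 5504 and 2, with 5627 genes in E113Q, and Tbx3 turned to -0.05 in E76K and to -0.05 in E76Q.

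With only the groups compared, which leaves fewer samples, 1442 genes were called in E71K, 6136 and 2 T-box genes in E76K, 8276 in E76Q and 1 T-box gene in E113Q. Tbx3 was then called in E113K (0.25, adjusted p = 0.0439). Between E71K and E71Q 346 genes were called, and between E76K and E76Q 2 T-box genes. The interactions called 1676 genes (E71 with E76), 2337 and 0 T-box genes (E71 with E113; 2 with all libraries) and 2 T-box genes (E76 with E113). For that 0, limma's adjusted p was 0.0542 for Tbx1 and 0.106 for Tbx15, and 2 T-box genes had an unadjusted p under 0.05.

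Without Mir6236, 5238 genes and 4 T-box genes were called in E71K, 2 T-box genes in E76K, 4973 and 4 between E71K and E71Q, 1 between E76K and E76Q, and 4082 genes (E71 with E76) and 2 T-box genes (E76 with E113) by interaction, and Tbx18 in E71Q turned to 0.09. Without the libraries that lay apart, 4939 genes were called in E71K, 2 T-box genes in E76K, 6541 and 3 between E71K and E71Q, 6054 and 2 between E76K and E76Q, and 5486 between E113K and E113Q. The interactions then called 5557 and 2 (E71 with E76), 7015 (E71 with E113), and 6100 and 2 (E76 with E113). Tbx18 turned to -0.05 between E113K and E113Q and to -0.11 for E71 with E76, and Tbx3 to 0.19 for E71 with E113.

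Leaving out 1 library gave 1 (without WT replicate 1) to 4 (without E71K replicate 2) T-box genes called in E71K against WT. Between E71K and E71Q it gave 1 to 3 (2 without E71K replicate 2, 3 without E71K replicate 3 or E71Q replicate 1) and 1815 to 4713 genes (1815 without E71Q replicate 2, 1901 without E71K replicate 1, 4713 without E71K replicate 3). In E113K against WT it gave 2 in every fit, where 3 were called with all libraries. It gave 1 to 2 in E113Q against WT (1 without E113Q replicate 1), 1 to 2 between E113K and E113Q, and 1 to 2 for the interaction of E71 with E113. Uncalled values that turned sign ranged from -0.04 to 0.12 for Tbx3 in E76Q, -0.05 to 0.05 for Tbx18 in E71Q, -0.10 to 0.15 for Tbx18 in E71 with E76, -0.26 to 0.04 for Tbx3 in E71 with E113, and -0.05 to 0.24 for Tbx18 between E113K and E113Q.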
